A study of Homo sapiens with 75 samples.

Results

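TK6 cells, a human B lymphoblastoid line, were compared at 3 h and at 0 h of mock irradiation, that is, after the same handling and culture as irradiated cells but without the dose. The comparison holds 6 arrays, 3 titled untreated at 3 h and 3 titled untreated at 0 h, of the 15 TK6 arrays and the 75 arrays of the series. The study exposed 5 human cell lines to 5 Gy of ionising radiation or to mock handling and measured total RNA on whole-transcriptome Affymetrix arrays at 0, 3 and 6 h. All cells were grown in DMEM with fetal calf serum. The other TK6 groups are irradiated 3 h, irradiated 6 h and untreated 6 h, and the other lines are labelled G361, HepG2, U2OS and BJ, with 3 arrays in each group. The labels name no transgene or mutant allele. They also do not say whether the 3 arrays of a group came from separate cultures, so the p-values below cover only the scatter among these arrays, and that scatter may be technical. Levels are the deposited log2 values, a change is the mean at 3 h minus the mean at 0 h, and of several probe sets for a gene, the brightest on average across all 75 arrays stands for it.

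Several regulatory systems recur among the genes described. Hypoxia-inducible factors are degraded when oxygen and prolyl hydroxylases are available and otherwise switch on genes for glycolysis, mitophagy and collagen hydroxylation. Immediate early genes such as FOS and EGR1 are switched on within minutes of serum, touch or growth-factor signals, and their transcripts are short-lived. NF-kB is constitutively active in many lymphoblastoid lines and drives genes of costimulation and chemokines. MTF1 senses zinc and drives the zinc exporter gene SLC30A1 together with the metallothionein genes.

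The promoters of 5 genes on which the results turn are printed here from RefSeq (GRCh38.p14), each covering 250 bases before to 50 bases after the annotated start, 5′ to 3′ on the gene's strand. PFKFB4 (chr3:48556754-48557053, minus strand) and P4HA1 (chr10:73096817-73097116, minus strand) stand for the hypoxia genes, and the capitals mark ACGTG or GCGTG, the core of the hypoxia response element, on either strand. SLC30A1 (chr1:211579112-211579411, minus strand) is the called gene of the zinc list, with TGCACNC or TGCGCNC, the core of the metal response element, in capitals on either strand. EGR1 (chr5:138465229-138465528, plus strand) stands for the immediate early genes, with the CArG box, the site of serum response factor, in capitals. CXCL10 (chr4:76023448-76023747, minus strand) stands for the NF-kB genes, with the kB site in capitals.
PFKFB4: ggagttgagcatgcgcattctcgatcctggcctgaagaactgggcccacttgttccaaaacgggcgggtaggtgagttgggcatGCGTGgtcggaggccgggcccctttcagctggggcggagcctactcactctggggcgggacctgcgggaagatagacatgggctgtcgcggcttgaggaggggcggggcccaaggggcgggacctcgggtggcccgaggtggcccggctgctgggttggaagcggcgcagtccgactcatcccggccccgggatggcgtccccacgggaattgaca
P4HA1: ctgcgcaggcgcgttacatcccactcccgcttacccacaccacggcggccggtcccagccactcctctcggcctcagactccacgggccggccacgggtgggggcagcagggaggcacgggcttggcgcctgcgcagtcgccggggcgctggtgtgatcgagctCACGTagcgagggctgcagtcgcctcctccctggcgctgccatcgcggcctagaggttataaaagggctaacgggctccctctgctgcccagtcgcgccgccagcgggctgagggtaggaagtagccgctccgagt
SLC30A1: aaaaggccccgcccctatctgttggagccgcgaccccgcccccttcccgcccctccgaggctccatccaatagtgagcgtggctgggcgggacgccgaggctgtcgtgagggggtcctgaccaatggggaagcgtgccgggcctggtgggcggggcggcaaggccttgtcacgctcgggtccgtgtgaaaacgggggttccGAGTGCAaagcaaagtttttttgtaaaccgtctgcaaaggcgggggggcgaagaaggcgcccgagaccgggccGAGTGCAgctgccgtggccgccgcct
EGR1: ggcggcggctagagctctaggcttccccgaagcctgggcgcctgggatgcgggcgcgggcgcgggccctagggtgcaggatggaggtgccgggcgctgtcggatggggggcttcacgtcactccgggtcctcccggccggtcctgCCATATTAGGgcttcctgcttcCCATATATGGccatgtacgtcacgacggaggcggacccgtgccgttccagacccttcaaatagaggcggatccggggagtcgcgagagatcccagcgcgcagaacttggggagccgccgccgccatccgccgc
CXCL10: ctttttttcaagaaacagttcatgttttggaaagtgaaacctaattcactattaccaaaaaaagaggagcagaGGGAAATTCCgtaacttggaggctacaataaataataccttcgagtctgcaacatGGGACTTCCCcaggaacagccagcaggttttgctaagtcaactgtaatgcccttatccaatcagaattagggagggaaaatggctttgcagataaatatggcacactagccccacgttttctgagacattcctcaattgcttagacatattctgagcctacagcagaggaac
The core in PFKFB4 begins 166 bases before the start and that in P4HA1 86 bases before it. SLC30A1 holds a metal response core 49 bases before and another 24 bases after its start, both on the opposite strand. EGR1 holds CArG boxes 105 and 83 bases before its start, and CXCL10 kB sites 177 and 122 bases before its start. These matches describe letters, not occupied sites. Both strands were searched, and a site that reads the same on both strands, as a CArG box does, was counted once. Among the 11323 promoters of tested genes in the RefSeq table, the hypoxia core occurred in 60.6%, the metal core in 37.4%, the kB site in 6.9% and the CArG box in 1.1%. The hypoxia core was found in 7 of 9 promoters of called hypoxia genes and in 21 of 26 of that list's tested members. It was absent from the promoters of the called genes PDK1 and MXI1. Of the immediate early genes, only EGR1 among 21 promoters held a CArG box in this window. The kB site occurred in 14 of 94 promoters of genes called higher, and in 5 of 121 of genes called lower. TRAF1 and CD80, which were called higher, held no kB site in this window. REL, which was called lower, held matches 47 and 46 bases before its start.

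After 3 h of mock handling, 257 of 14227 genes tested were called changed (limma, adjusted p under 0.05). Of these, 104 were higher at 3 h (0.731% of the genes tested) and 153 were lower (1.08%). At least 2-fold changes were seen in 12 of the higher and 32 of the lower genes, and the median size of a called change was 0.64 on the log2 scale. The 3 h and 0 h arrays did not overlap in 104 of 104 genes called higher and 152 of 153 called lower, while over all genes tested 2131 (15.0%) did not overlap. The exception was INSIG1. At an unadjusted p under 0.05 there were 1928 genes. A fit with replicate number as a blocking factor called 995 genes, among them all 257. The count without the block depended on single arrays: it was 92 without replicate 2 at 3 h, 123 without replicate 3 at 3 h, 53 without replicate 2 at 0 h and 51 without replicate 3 at 0 h. Without replicate 2 of every TK6 group no gene was called (952 at an unadjusted p under 0.05), and without replicate 3 of every group 1 was. Replicate 1 at 0 h was the 0 h array nearest to the 3 h mean in 168 of the 257 called genes (65.4%), against 43 and 46 for replicates 2 and 3. The part of this array in the results is shown gene by gene below.

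Whole-array summaries lay close together, but replicate 2 at 3 h stood apart in some lists. The mean of 40 tested p53 targets, relative to 0 h, was −0.28 in it, against 0.02 and −0.02 in replicates 1 and 3. For 26 histone genes it was −0.26, against −0.02 and −0.03, while for hypoxia genes it was −0.48, against −0.48 and −0.35. The median 3 h minus 0 h difference of genes called lower was −0.90 for replicate 2, against −0.46 and −0.64 for replicates 1 and 3. Median levels of the 15 TK6 arrays ran from 3.92 to 4.01 and upper quartiles from 6.06 to 6.30, the lowest belonging to replicate 2 at 3 h. Correlations over all probe sets were 0.981 to 0.992 within the 3 h arrays, 0.991 to 0.993 within the 0 h arrays and 0.980 to 0.994 between them, and no arrays held identical values. The 5′ minus 3′ probe set difference, a sign of RNA quality, was 0.02 to 0.07 for GAPDH at 3 h and 0.03 to 0.09 at 0 h. For ACTB it was −0.62 to −0.55 at 3 h and −0.79 to −0.55 at 0 h. All 12 measured B-lymphoid markers passed the level limit. CD74, the invariant chain of MHC class II, averaged 12.29 at 3 h and 12.09 at 0 h, and the antigen receptor component CD79A 9.57 and 9.42. BLK, a B-cell Src-family kinase, lay at the limit with 3.50 and 3.68, and PAX5 was low with 5.13 and 4.81. BLNK, the adaptor below the B-cell receptor, was the marker called. Of 56 measured markers of T and NK cells, monocytes, erythroid cells, fibroblasts, melanocytes and epithelium, 33 were tested and none was called (2 at an unadjusted p under 0.05). The highest of them were NKG7, with 8.95 at 3 h and 8.70 at 0 h, and MITF, with 8.31 and 8.04. In bulk RNA, fewer cells of a kind and less RNA per cell cannot be told apart.

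The largest fall was that of PFKFB4, whose enzyme makes and degrades fructose 2,6-bisphosphate and so sets the pace of glycolysis. It had 5.27, 6.26 and 6.45 at 3 h, against 8.02, 8.40 and 8.49 at 0 h. The groups were apart by more than the range of either, and the fall was 4.95-fold (log2 change −2.31, SE 0.28, adjusted p = 0.000655). APELA, which encodes a peptide ligand of the apelin receptor, fell 3.04-fold, with 4.19, 3.05 and 3.42 at 3 h, against 4.96, 5.62 and 4.90 at 0 h. Replicates 2 and 3 at 3 h lay under the level limit of 3.52. The centrosomal gene KIZ had 5.17, 5.18 and 5.47 at 3 h, against 6.75, 6.65 and 6.72 at 0 h, a fall of 2.70-fold (adjusted p = 0.000957) that 3 of its 5 probe sets shared in direction. TNFRSF10D, the decoy receptor for the death ligand TRAIL, had 8.11, 7.57 and 8.30 at 3 h, against 9.06, 9.60 and 9.46 at 0 h (2.60-fold lower). NRN1, the neuronal growth protein neuritin, had 6.96, 7.17 and 7.67 at 3 h, against 8.34, 8.62 and 8.76 at 0 h (2.47-fold lower). All 3 arrays at 3 h lay below all 3 at 0 h in each of these genes, as the rule that chose them required. PPP1R10, a nuclear targeting subunit of protein phosphatase 1, fell 2.39-fold, and MAFF, a small MAF transcription factor, 2.48-fold. RBM4, a splicing regulator, fell 2.38-fold. FAM117B, ZNF264 and FRMD5 fell 2.79-fold, 2.60-fold and 2.55-fold. In FAM117B, ZNF264 and FRMD5 replicate 2 at 3 h was the lowest array, with 4.29, 3.99 and 2.72. FRMD5 had a 3 h mean under the level limit, and 1 of its 2 probe sets went the same way. KDM4B, a histone lysine demethylase, had 7.94, 7.55 and 7.95 at 3 h, against 8.87, 8.79 and 9.0 at 0 h (change −1.07, adjusted p = 0.000855). Of 6 fits that each left out an array, FRMD5 lost its call in 5, FAM117B in 4, APELA in 3, MAFF and RBM4 in 2 and ZNF264 in 1. The other falls given here kept their calls in all 6.

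The largest rise was that of TRAF1, an adaptor of TNF-receptor signalling and a known NF-kB target. It had 9.24, 9.27 and 9.42 at 3 h, against 8.42, 7.86 and 7.64 at 0 h, a rise of 2.53-fold (log2 change 1.34, SE 0.16, adjusted p = 0.000655). KMO, the kynurenine hydroxylase of tryptophan breakdown, rose 2.48-fold, with 5.06, 5.11 and 5.09 at 3 h, against 3.79, 3.53 and 4.03 at 0 h. The 3 h arrays of both genes lay closer together than the 0 h arrays. CXCL10, an interferon- and NF-kB-responsive chemokine, had 8.24, 8.08 and 7.45 at 3 h, against 7.13, 6.36 and 6.37 at 0 h (2.46-fold higher). CD80, the costimulatory ligand that B cells show to T cells, had 7.08, 6.73 and 6.45 at 3 h, against 5.48, 5.34 and 5.75 at 0 h (2.34-fold higher, adjusted p = 0.0057). The rule that chose both genes required groups that did not overlap. The CXCL10 arrays nearest each other, replicate 3 at 3 h and replicate 1 at 0 h, were 7.45 and 7.13. TLCD1, a membrane lipid regulator, had 7.13, 6.61 and 6.78 at 3 h, against 5.96, 5.61 and 5.43 at 0 h (2.26-fold higher). IL4I1, a secreted amino acid oxidase of activated B cells, had 7.96, 7.91 and 8.01 at 3 h, against 7.31, 6.64 and 6.50 at 0 h (2.20-fold higher). ARRDC3, an alpha-arrestin, had 4.81, 4.88 and 4.72 at 3 h, against 3.81, 3.49 and 3.62 at 0 h. TNIP3, a partner of the NF-kB brake A20, had 4.59, 4.60 and 4.53 at 3 h, against 3.46, 3.71 and 3.52 at 0 h. KMO, ARRDC3 and TNIP3 were near the level limit of 3.52 at 0 h. The changes of ARRDC3 and TNIP3 were 1.16 and 1.0. PPP3R1, the regulatory subunit of calcineurin, rose 2.06-fold and POP1, a protein of RNase P and RNase MRP, 1.90-fold. C19orf25 rose 2.12-fold, FAM200C 2.23-fold and the bitter taste receptor gene TAS2R14 1.87-fold. NBPF20 rose 2.06-fold, but it belongs to a family of near-identical copies whose probes may read several genes. DLEU2, the host transcript of a pair of microRNAs, rose 1.90-fold by its brightest probe set, and 2 of its 7 probe sets went that way. With the mean of all its probe sets its change was −0.23. Of the 6 fits that left out an array, FAM200C lost its call in 5, PPP3R1 and POP1 in 4 and CXCL10, TNIP3 and TAS2R14 in 3. ARRDC3 lost its call in 2 and IL4I1 in 1, and the other rises given here kept theirs in all 6.

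**Figure D1:**
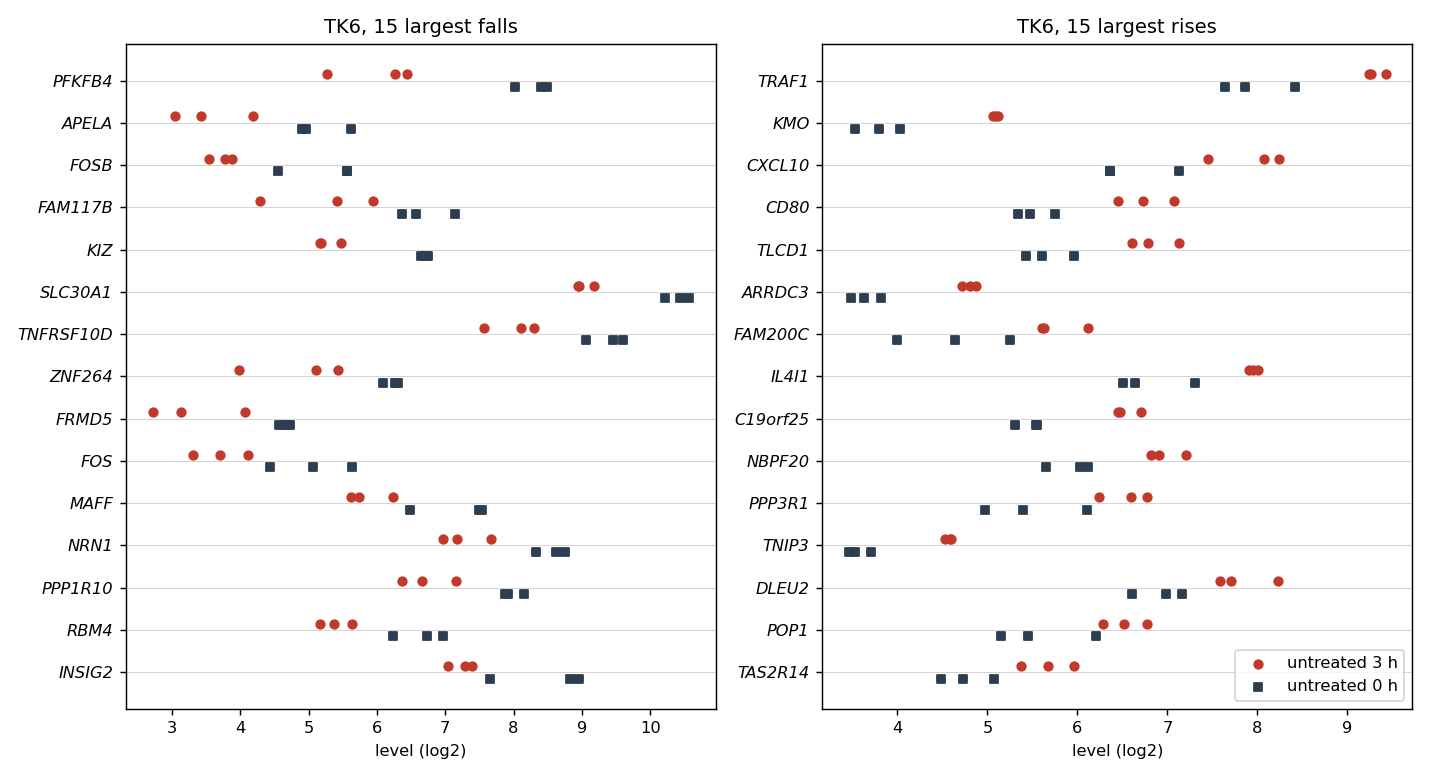
Levels (log2, horizontal axes) of the 15 genes with the largest called falls, left, and rises, right, in TK6. Circles are the 3 arrays of untreated cells at 3 h and squares the 3 arrays at 0 h. Only genes whose circles all lie on 1 side of the squares were eligible, so this separation is set by the choice. The replicate spread of the 3 h arrays is wide in FAM117B and ZNF264.

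Of the 18 gene lists examined, the hypoxia and glycolysis list had the most called members. Of its 31 tested genes, 10 fell and none rose, against 1.08% of all genes called lower, and the median change was −0.32, against 0.01 over all genes tested. P4HA1, the catalytic subunit of collagen prolyl hydroxylase, had 9.29, 9.14 and 9.49 at 3 h, against 10.07, 10.19 and 10.36 at 0 h (change −0.90, SE 0.13, adjusted p = 0.00183). The hypoxia core in its promoter is printed above, and 1 of its 2 probe sets went this way. PDK1, the kinase that shuts off pyruvate dehydrogenase, had 9.05, 9.07 and 9.26 at 3 h, against 9.83, 10.09 and 9.86 at 0 h (change −0.80, adjusted p = 0.00323). BNIP3, a mitophagy receptor, had 10.04, 10.21 and 10.74 at 3 h, against 10.96, 11.52 and 11.35 at 0 h (change −0.95, adjusted p = 0.0092). The 3 h and 0 h arrays of the 3 genes did not overlap, as in nearly every called gene and in 15.0% of all genes tested. Replicate 3 was the highest of the 3 h arrays in each of the 3. TXNIP, an inhibitor of thioredoxin and of glucose uptake, had 10.32, 9.97 and 10.30 at 3 h, against 10.94, 10.70 and 10.86 at 0 h. INSIG2, a sterol-sensing protein of the endoplasmic reticulum, had 7.40, 7.04 and 7.29 at 3 h, against 7.66, 8.83 and 8.96 at 0 h. In INSIG2 replicate 1 at 0 h lay just above the 3 h arrays, while the other 0 h arrays were over 1 log2 unit above it. INSIG2 lost its call in 3 of the 6 fits that left out an array, and BNIP3 in 2. The remaining called members, named after their values were seen, were MXI1 (change −1.02), an antagonist of MYC, ANKZF1 (−1.0), a ribosome quality-control factor, HK2 (−0.88), the inducible hexokinase, and EGLN1 (−0.58), the prolyl hydroxylase that marks hypoxia-inducible factors for decay. Of the members not called, the mitophagy receptor BNIP3L had the largest negative change, −0.80 (adjusted p = 0.0747), followed by the histone demethylase KDM3A with −0.80 (adjusted p = 0.129) and NDRG1 with −0.47. KDM3A had 8.24, 7.87 and 7.89 at 3 h, against 7.96, 9.08 and 9.35 at 0 h, so that replicate 1 at 0 h lay among the 3 h arrays. Apart from HK2, the list's genes for enzymes of glycolysis itself and for lactate dehydrogenase were not called. Their changes were 0.00 for GAPDH, −0.03 for LDHA and ALDOA, −0.07 for PGK1, −0.08 for ENO1 and −0.09 for PKM. They were −0.20 for PGAM1, −0.26 for ALDOC, −0.32 for PFKP (adjusted p = 0.0558) and −0.43 for ENO2 (adjusted p = 0.0762). The number of called members was 5 without replicate 2 at 3 h, 6 without replicate 3 at 3 h, and 4 without replicate 2 or replicate 3 at 0 h. The mean level of the 31 members was 8.90, 8.90 and 9.03 at 3 h, against 9.19, 9.43 and 9.53 at 0 h.

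Immediate early genes were the other list with a low median. Of 31 tested members, 5 fell and none rose (1.08% of all genes were called lower), with a median change of −0.41, and 20 had an unadjusted p under 0.05. Of these 20, 19 had negative changes and 1, MYC, a positive one (0.43, adjusted p = 0.0864). FOSB, a subunit of the AP-1 transcription factor, had 3.54, 3.77 and 3.88 at 3 h, against 4.56, 5.56 and 5.57 at 0 h, a fall of 2.83-fold (adjusted p = 0.00323). FOS, its founding relative, had 3.70, 3.31 and 4.11 at 3 h, against 4.44, 5.07 and 5.64 at 0 h, a fall of 2.54-fold (adjusted p = 0.029). Both were near the level limit at 3 h and replicate 1 was the lowest of the 0 h arrays in both. EGR1, a zinc-finger factor whose CArG boxes are printed above, had 8.38, 8.33 and 8.30 at 3 h, against 8.95, 9.39 and 10.25 at 0 h (change −1.19, SE 0.21, adjusted p = 0.0075). The 3 h arrays of EGR1 lay close together (SD 0.04) while its 0 h arrays spread over more than 1 log2 unit. NR4A1, an orphan nuclear receptor, had 6.02, 5.76 and 6.09 at 3 h, against 6.61, 6.78 and 7.30 at 0 h (change −0.94, adjusted p = 0.0085; 2 of 3 probe sets in this direction). IER2, a nuclear immediate early protein, had 10.54, 10.54 and 10.39 at 3 h, against 10.73, 10.89 and 11.14 at 0 h (change −0.43, adjusted p = 0.0276). IER2 lost its call in 4 of the 6 fits that left out an array, FOS in 3 and NR4A1 in 1. Members not called included EGR3 (change −0.93, adjusted p = 0.131), the MAP kinase phosphatase gene DUSP4 (−0.84, 0.0586) and the nuclear receptor gene NR4A2 (−0.77, 0.0663). The number of called members was 9 without replicate 1 at 3 h or at 0 h, 3 without replicate 2 at 3 h or at 0 h, and 2 without replicate 3 at 0 h. The mean level of the 31 genes was 7.06, 6.93 and 7.06 at 3 h, against 7.32, 7.48 and 7.60 at 0 h, with no overlap.

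**Figure D2:**
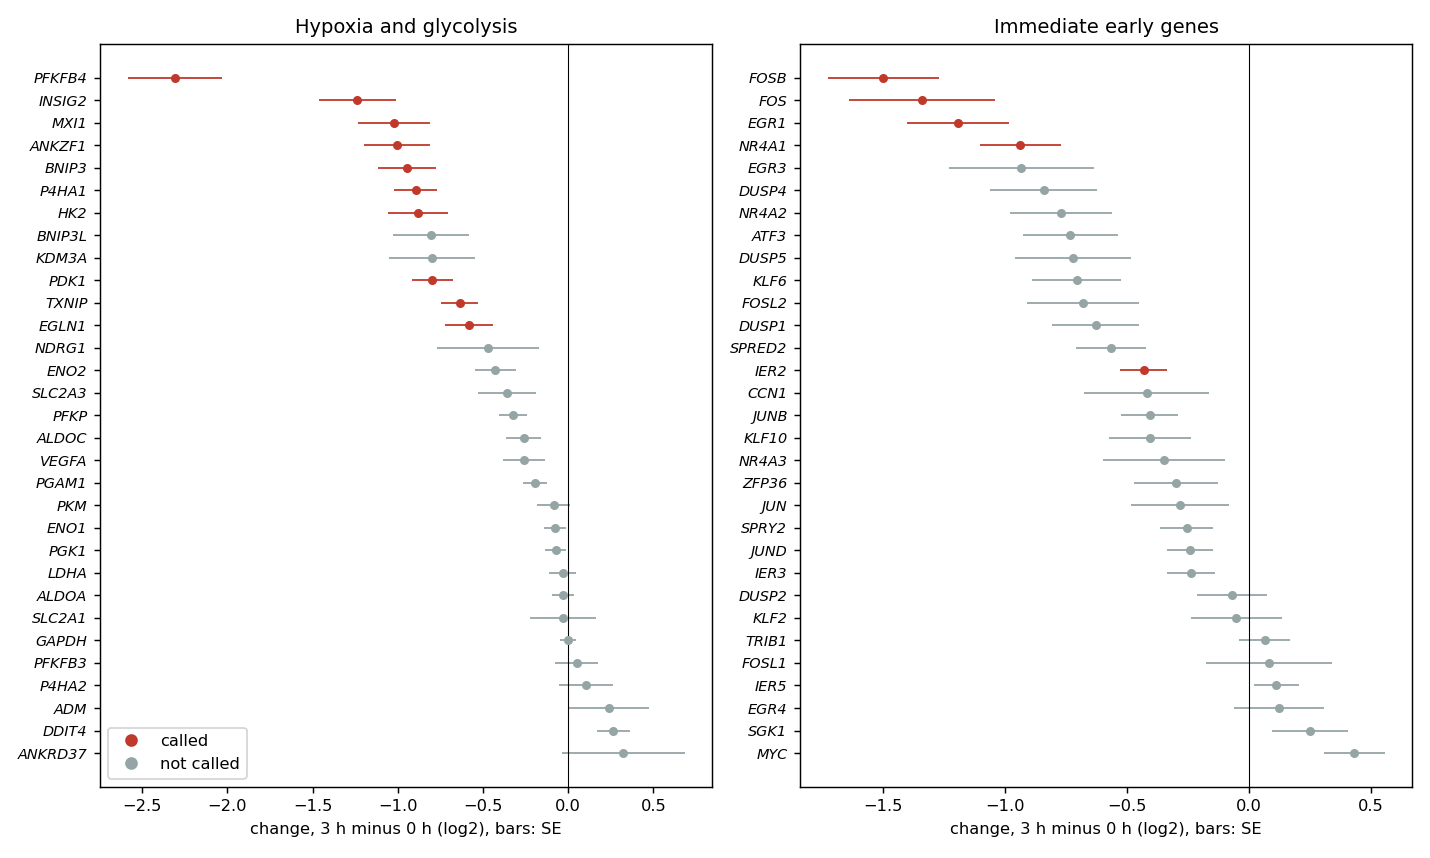
Change in TK6, 3 h minus 0 h (log2, horizontal axes), of the 31 tested members of the hypoxia and glycolysis list, left, and of the 31 tested immediate early genes, right; points are changes and bars their SE. The 10 and 5 called members, in red, all lie left of 0.

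NF-kB targets and cytokines had a median change of 0.19 over 35 tested members, with 2 rises, TRAF1 and CXCL10, and 1 fall (background 0.731% higher and 1.08% lower). The fall was that of REL, the NF-kB subunit of lymphocytes, with 9.0, 8.74 and 8.80 at 3 h, against 9.68, 9.60 and 9.45 at 0 h (change −0.73, adjusted p = 0.0057). All 5 probe sets of REL went this way. The chemokine genes CCL4, CCL20 and CCL5 had changes of 0.94, 0.56 and 0.49 that were not called (adjusted p = 0.116, 0.132 and 0.233). In the list for B-cell activation, 43 genes were tested, CD80 rose and BLNK and CD69 fell, beside the same background of 0.731% and 1.08%. BLNK had 9.16, 9.22 and 9.22 at 3 h, against 9.66, 9.96 and 9.89 at 0 h (change −0.64, adjusted p = 0.00183). The early activation antigen CD69 had 7.84, 8.37 and 8.46 at 3 h, against 8.91, 8.86 and 9.02 at 0 h (change −0.71, adjusted p = 0.0371). CD80 and CD69, both activation antigens, thus went opposite ways in the same arrays. The call of CD69 was lost in 5 of the 6 fits that left out an array, while CD80 kept its call in all 6.

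The zinc exporter gene SLC30A1 had the smallest adjusted p of the comparison. It had 8.96, 8.94 and 9.18 at 3 h, against 10.22, 10.57 and 10.44 at 0 h, a fall of 2.61-fold (change −1.39, SE 0.14, adjusted p = 0.000136), and 2 of its 3 probe sets went this way. It was called without each of the 6 arrays in turn. The metallothionein genes MT1G and MT1H, which respond to the same zinc sensor, had changes of 0.77 and 0.48 that were not called (adjusted p = 0.237 and 0.442). MT1G had 7.81, 8.19 and 6.95 at 3 h, against 7.43, 6.74 and 6.47 at 0 h. Its groups overlapped, although each 3 h array lay above the 0 h array of the same number. The list for metallothioneins and zinc had 9 tested members, of which SLC30A1 was the called member, and a median change of 0.30. Over all genes, 0.731% were called higher and 1.08% lower. The metallothionein genes MT1E, MT1F, MT1X and MT2A also had positive changes that were not called (0.07, 0.31, 0.46 and 0.30), opposite in direction to SLC30A1. MTF1 and SLC39A10 had negative ones, −0.22 and −0.48, not called.

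In the integrated stress and unfolded protein response list, 4 of 36 tested members rose and 1 fell (0.731% of all genes were called higher and 1.08% lower), with a median change of 0.08. The transcription factor gene ATF5 had 9.58, 9.50 and 9.41 at 3 h, against 9.01, 8.54 and 8.55 at 0 h (change 0.79, adjusted p = 0.00323; 2 of 4 probe sets in this direction). The tryptophanyl-tRNA synthetase gene WARS1 (change 0.44), the amino acid transporter gene SLC7A5 (0.45) and the endoplasmic reticulum chaperone gene HSPA5 (0.36) also rose. PPP1R15A, the phosphatase subunit that ends the response, had 6.64, 6.44 and 6.62 at 3 h, against 7.13, 7.80 and 7.98 at 0 h (change −1.07, adjusted p = 0.0057). The rises were 0.36 to 0.79, and HSPA5 and SLC7A5 lost their calls in 4 and 3 of the 6 fits that left out an array.

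In cholesterol synthesis and uptake, 2 of 21 tested members fell (1.08% of all genes were called lower) and the median change was −0.15. HMGCS1, the enzyme before HMG-CoA reductase, had 7.18, 7.34 and 7.58 at 3 h, against 7.60, 8.74 and 8.83 at 0 h (change −1.03, adjusted p = 0.0326). INSIG1, the feedback inhibitor of sterol synthesis, had 8.49, 8.41 and 8.70 at 3 h, against 8.64, 10.05 and 10.14 at 0 h (change −1.07, adjusted p = 0.0386). In both genes replicate 1 at 0 h lay at or near the 3 h arrays, and both calls were lost in 5 of the 6 fits without an array. MSMO1 and SC5D, sterol enzymes, had changes of −0.77 and −0.76 (adjusted p = 0.0528 and 0.0535), also with replicate 1 the lowest at 0 h. Over the list, the mean level was 8.08, 8.14 and 8.25 at 3 h, against 8.18, 8.52 and 8.54 at 0 h, and replicate 1 at 0 h lay among the 3 h arrays.

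Other lists had 0 to 2 called members each, beside 0.731% of all genes called higher and 1.08% called lower. The clock genes NR1D2 (change −1.12, adjusted p = 0.0148) and BHLHE40 (−0.38, 0.0421), both transcriptional repressors, fell among 13 tested. BAG3, a co-chaperone, rose (0.54, 0.0386) among 19 heat shock genes, ABCC1, an export pump, fell (−0.65, 0.0209) among 19 NRF2 genes, and SRSF5, a splicing factor, fell (−0.45, 0.0104) among 20 short-lived regulatory RNAs. PSRC1, a spindle protein, rose (0.67, 0.0326) among 50 genes of G2 and mitosis, whose median change was 0.13. Of the 6 fits that left out an array, PSRC1 lost its call in 5, BHLHE40, BAG3 and ABCC1 in 4, and NR1D2 and SRSF5 in 3. None was called by limma of 40 p53 targets (7 at an unadjusted p under 0.05), 44 replication genes (6), 26 histone genes (3), 33 interferon-stimulated genes (3), 38 genes of MYC and ribosome biogenesis (7) or 21 genes of FOXO and MTORC1 signalling (9). Over all genes tested, 13.6% had an unadjusted p under 0.05. The p53 targets ASTN2 and GDF15 had changes of −0.83 and −0.80 (adjusted p = 0.103 and 0.0582), and the p53 list had a median of −0.10.

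**Figure D3:**
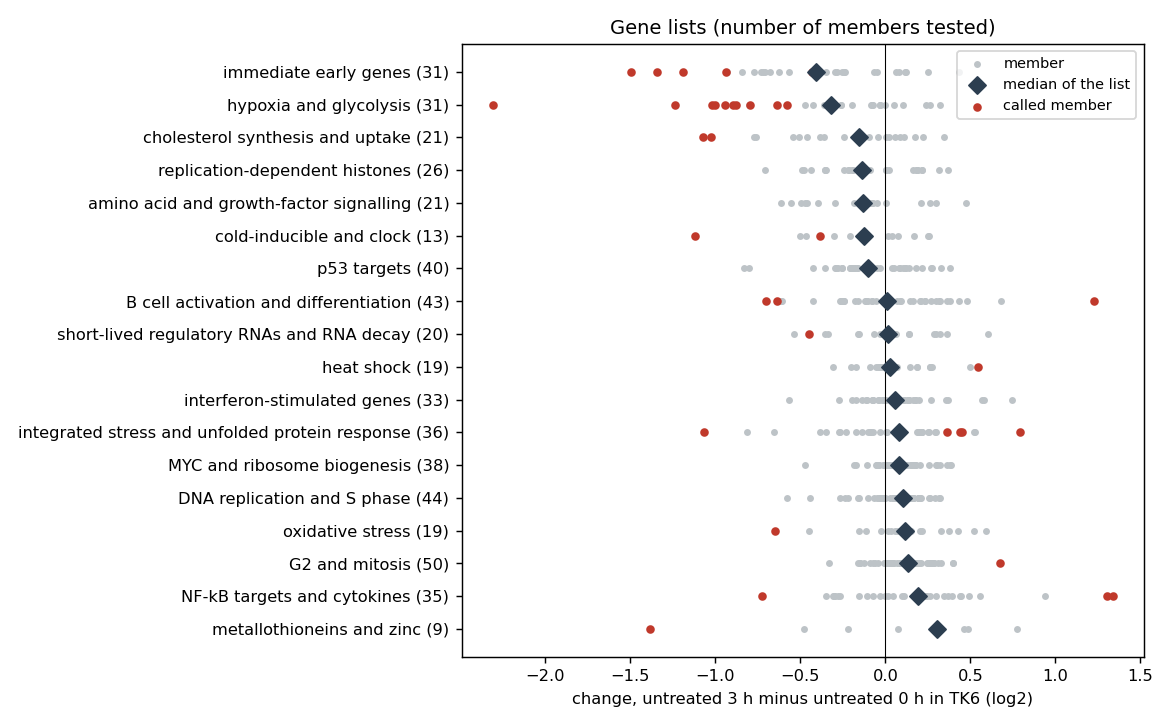
Change in TK6, 3 h minus 0 h (log2, horizontal axis), for every tested member of 18 gene lists, ordered by the median; grey points are members, red points called members and diamonds the medians. Medians run from −0.41 for immediate early genes to 0.30 for metallothioneins and zinc.

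The 6 h mock controls give a later reading of the same genes. Between 6 h and 3 h, 6 of 14227 genes were called (0.0422%), 1 higher and 5 lower at 6 h, with 1468 at an unadjusted p under 0.05. Arrays with the same replicate number deviated together in this comparison, and a fit with replicate number as a blocking factor called 363 genes. Without replicate 1 at 3 h the count was 119, and without replicate 2 at 6 h, replicate 3 at 6 h or replicate 3 at 3 h it was 2. METTL3, the catalytic subunit of the RNA adenosine methyltransferase, rose, with 9.59, 9.71 and 9.60 at 6 h, against 9.12, 8.67 and 8.94 at 3 h (change 0.72, adjusted p = 0.0215). The cystine transporter gene SLC7A11 fell, with 6.79, 6.90 and 7.11 at 6 h, against 7.89, 8.09 and 8.09 at 3 h (change −1.08, adjusted p = 0.00295). INHBE, an activin subunit gene and stress-response target, fell, with 6.07, 6.03 and 6.09 at 6 h, against 7.16, 6.86 and 7.65 at 3 h (change −1.16). The factor gene SP2 (−1.03) and SRSF5 (−0.87) also fell. The 6 h and 3 h arrays did not overlap in any of these 5 genes. That is likely for any gene called from 3 arrays a group, and the share over all genes was not counted for these arrays. SLC30A1 was the member of the 30 largest changes called here as well, with 8.16, 8.12 and 8.11 at 6 h, against 8.96, 8.94 and 9.18 at 3 h (change −0.90, adjusted p = 0.0154).

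Means at 0, 3 and 6 h are given side by side for genes described above, since the comparisons share arrays. PFKFB4 averaged 8.30, 5.99 and 6.47, P4HA1 10.21, 9.31 and 9.36, and PDK1 9.92, 9.13 and 8.56. FOSB averaged 5.23, 3.73 and 3.73, EGR1 9.53, 8.34 and 9.0, and INSIG1 9.61, 8.54 and 8.92. TRAF1 averaged 7.97, 9.31 and 8.72, CXCL10 6.62, 7.92 and 8.37, and CD80 5.52, 6.75 and 6.74. PFKFB4, P4HA1 and FOSB at 6 h thus stayed far below their 0 h means, while the 6 h mean of EGR1 lay between its means at 0 and 3 h. In irradiated TK6 cells at 3 h, PFKFB4 had 5.03, 5.80 and 6.08 and FOSB 3.72, 4.21 and 4.20, values near those of the untreated 3 h arrays. SLC30A1 had 9.34, 9.72 and 9.57 in irradiated cells at 3 h, against 8.96, 8.94 and 9.18 in untreated cells at 3 h (difference 0.52, adjusted p = 0.0409).

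**Figure D4:**
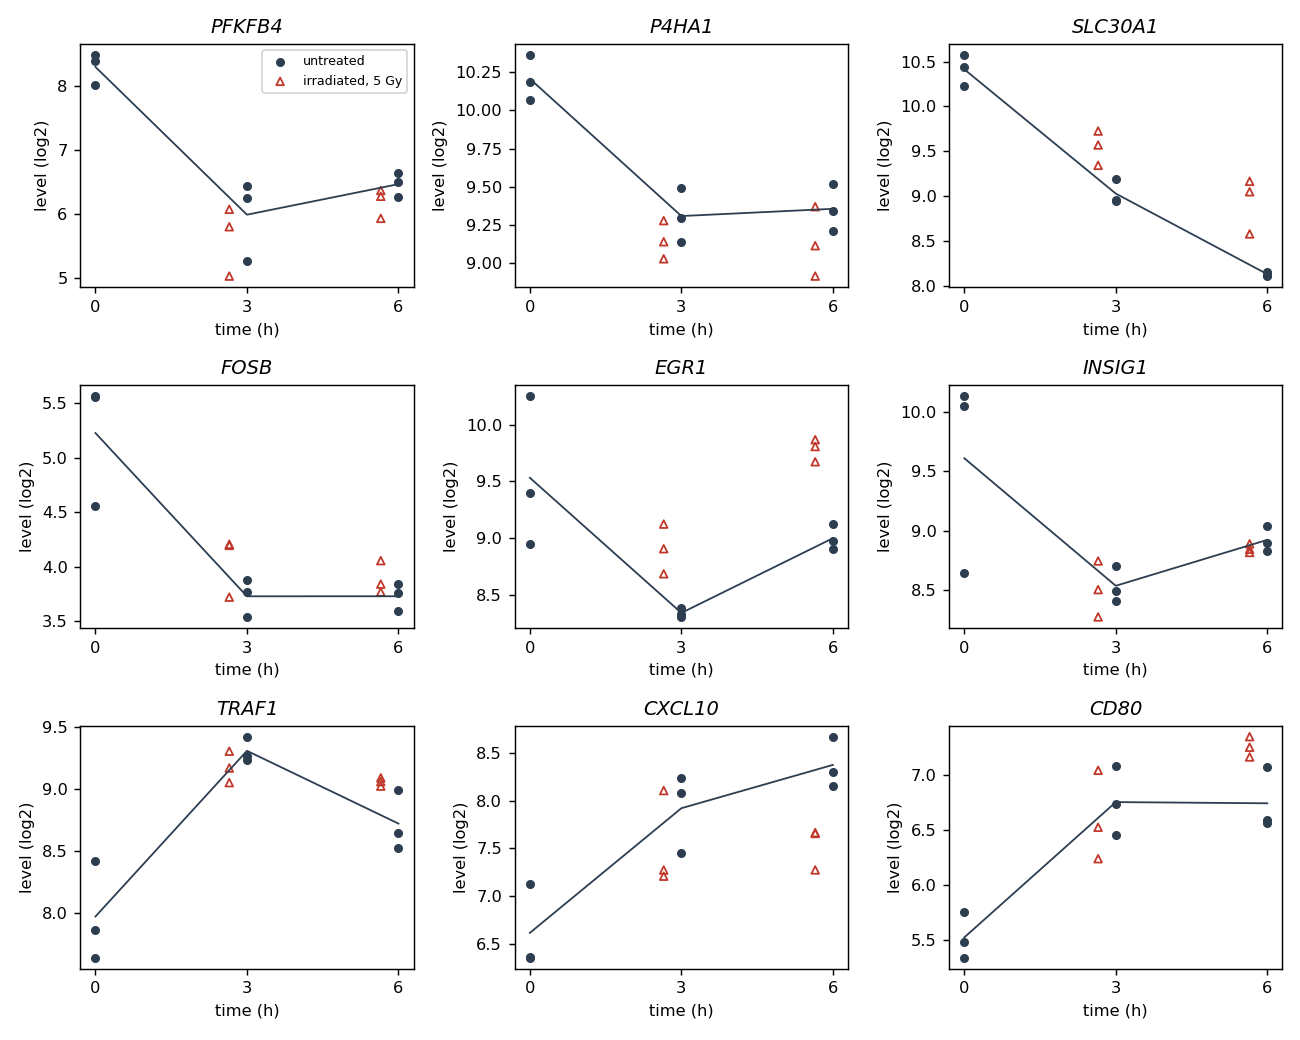
Levels (log2, vertical axes) of 9 genes in TK6 by time (h, horizontal axes); filled circles are the 3 untreated arrays with a line through their means, and open triangles, drawn slightly left of their time, the irradiated arrays. PFKFB4, P4HA1 and FOSB are low at 3 and 6 h and SLC30A1 is lowest at 6 h; in INSIG1, replicate 1 at 0 h lies at the level of the 3 h arrays.

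The TK6 change minus the mean change of G361, HepG2, U2OS and BJ was tested in the 75 arrays. Genes that passed the level limit in any line were kept, so some may pass through TK6 only. A gene near background in the other lines may show no change there, and its difference may then only restate the TK6 change. The levels of the called genes in the other lines were not compared. The labels of these lines were checked against marker genes, as means of the untreated arrays at 0 and 3 h. All 7 melanocyte markers measured were highest in the arrays labelled G361, with PMEL at 12.86, against at most 5.08 in the other lines. The hepatocyte genes ALB, APOA1 and FGB averaged 2.75, 4.04 and 2.87 in the arrays labelled HepG2, close to their levels in the other lines, and AFP averaged 5.91 there, against 5.42 in U2OS. ALB, APOA1 and FGB, defining markers of a hepatocyte line, were thus absent or near background in the arrays labelled HepG2, their label is in doubt, and the name HepG2 below stands for the label only. Of the arrays used from these lines, replicate 3 of untreated G361 at 3 h stood apart, with the mean of 42 p53 targets 0.46 above its line's 0 h mean. The same value was −0.26 to 0.02 in the TK6 arrays at 3 h and −0.36 to 0.27 in the other 3 h arrays of the 4 lines. The difference is therefore also given against U2OS and BJ only, which leaves out the arrays labelled HepG2 as well. That comparison keeps replicate 1 of U2OS at 3 h, which had −0.36, against −0.02 and 0.08 in replicates 2 and 3. The difference from the 4 lines was called for 211 of 16027 genes (1.32%), 74 higher and 137 lower in TK6, and that from U2OS and BJ for 170. Without replicate 2 at 3 h or at 0 h in TK6 the count was 74, and without replicate 3 at 0 h it was 88. Among the 257 genes called in TK6, 47 of the higher and 80 of the lower were called for this difference, and 111 in all were against U2OS and BJ. The same 3 h and 0 h TK6 arrays underlie both counts. The other lines' own changes were called for 0 genes in G361 (375 at an unadjusted p under 0.05), 1 in HepG2 (915), 38 in U2OS (2403) and 6 in BJ (576).

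PFKFB4 had the smallest adjusted p for the difference (−2.17, adjusted p = 4.98e-08). Its change was −2.31 in TK6, against −0.48 in G361, 0.02 in HepG2, −0.35 in U2OS and 0.24 in BJ. FOSB changed by −1.50 in TK6, against 0.01, −0.21, 0.21 and 0.20 in the 4 lines in the same order (difference −1.55, adjusted p = 8.57e-07). KMO (difference 1.27), CXCL10 (1.43) and TLCD1 (1.21) were higher in TK6 by this test, and APELA (−1.57), ZNF264 (−1.65), KIZ (−1.37), KDM4B (−1.05) and KLHL6 (−0.98), a ubiquitin ligase adaptor of B cells, were lower. KLHL6 had 7.58, 7.04 and 7.44 at 3 h, against 8.28, 8.44 and 8.13 at 0 h in TK6. The difference was not called for FOS (−1.23, adjusted p = 0.0566), EGR1 (−0.99, 0.188), ARRDC3 (0.94, 0.117) or BNIP3 (−0.95, 0.0606). EGR1 changed by −1.19 in TK6, against 0.46 in G361, 0.53 in HepG2, −0.94 in U2OS and −0.86 in BJ. INSIG1 and HMGCS1 differed by −1.50 and −1.26 (adjusted p = 0.00522 and 0.000458), but in both replicate 1 of TK6 at 0 h lay near the 3 h arrays.

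**Figure D5:**
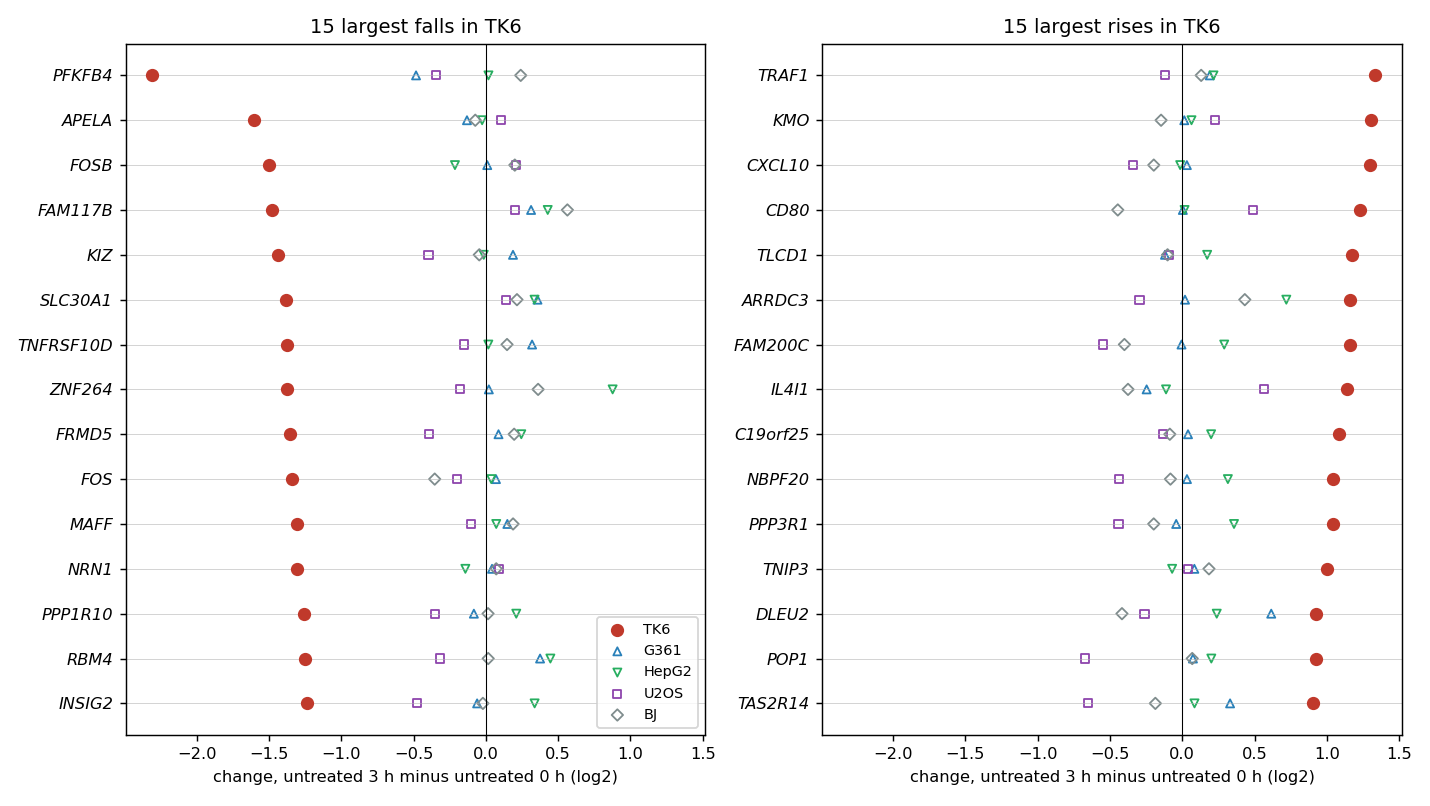
Change in untreated cells, 3 h minus 0 h (log2, horizontal axes), for the 15 largest falls, left, and rises, right, of TK6; filled circles are TK6 and open symbols the other 4 lines, with 3 arrays in each group. TK6 lies outside the range of the other lines for every gene shown, and PFKFB4 is farthest from 0. The genes were chosen for the size of their TK6 change in these same arrays, which favours such a place for TK6. The difference from the other lines was not called for FOS or ARRDC3.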

How the data were processed

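Total RNA of 75 samples was hybridised to 1-colour Affymetrix arrays. The deposited log2 values were made by the authors with RMA, per the submitters' processing notes; its version, and whether lines were normalised together, are not given in the sources used here, and the table holds no detection calls. Of 54675 probe sets, 41097 had 1 gene symbol in the platform annotation, 1801 several and 11777 none, leaving 19775 genes. Precision is limited by 3 arrays a group.

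Groups came from the labels. For genes whose mean over the 15 TK6 arrays passed the 40th percentile of all probe sets (3.52), 5 group means were fitted in limma 3.58.1 (R 4.3.3) with a trended empirical Bayes variance (10 residual degrees of freedom), and Benjamini-Hochberg adjustment ran over 14227 genes. The comparison with other lines used all 75 arrays (50 degrees of freedom) and the genes that passed the same percentile in any line.

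Members and lists were chosen with earlier results of these data known. Named genes were the 15 largest called rises and falls whose groups did not overlap, up to 6 called and 3 uncalled members per list, the 10 smallest adjusted p-values for the difference between lines and the 5 largest called changes each way from 3 to 6 h. Genes outside this rule are marked where they appear.

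The replicate numbers, given in the sample titles, were checked as pairs. Between 6 h and 3 h, deviations of same-numbered arrays correlated at 0.32, 0.30 and 0.17, so the count with the block stands beside that result, while the values printed for single genes come from the fit without the block. Alternatives were other level limits, quantile normalisation, the mean of probe sets, the 6 arrays alone, no variance trend, a replicate block and leaving out arrays.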

Additional observations from a re-analysis of the deposited data

Results flagged for a closer look

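The difference in change between TK6 and the mean of the other 4 lines was called for 211 of 16027 genes tested (1.32%). Among the 150 genes named, the change of 64 differed in this way (limma, adjusted p under 0.05 for the difference itself, log2). The change was lower in TK6 for 42 genes. The differences were PFKFB4 −2.17, FAM117B −1.86, SLC30A1 −1.65, ZNF264 −1.65, APELA −1.57, FOSB −1.55, INSIG1 −1.5, TNFRSF10D −1.46, FRMD5 −1.39, MAFF −1.38, RBM4 −1.38, KIZ −1.37, NRN1 −1.32 and NR1D2 −1.28. They were NR4A1 −1.27, MNT −1.27, HMGCS1 −1.26, PPP1R10 −1.21, INSIG2 −1.18, KDM4B −1.05, CSRNP1 −1.05, KDM3A −1.0, NR4A2 −0.99, LPIN1 −0.99, KLHL6 −0.98, BNIP3L −0.96, PDK1 −0.95 and PPP1R15A −0.9 for the next 14, and P4HA1 −0.88, SC5D −0.88, MSMO1 −0.86, REL −0.86, ETV3 −0.81, YPEL5 −0.76, H1-5 −0.72, BLNK −0.72, SCD −0.72, POFUT4 −0.69, ABCC1 −0.68, CD69 −0.67, BHLHE40 −0.6 and SRSF5 −0.59 for the remaining 14. It was higher in TK6 for 22 genes. The differences were CXCL10 1.43, FAM200C 1.32, KMO 1.27, TRAF1 1.23, CD80 1.21, TLCD1 1.21, IL4I1 1.18, NBPF20 1.09, C19orf25 1.08, TAS2R14 1.01 and POP1 1.0. They were CCL4 0.98, TNIP3 0.94, VCAM1 0.93, MT1G 0.9, DLEU2 0.88, SPIB 0.85, CCL20 0.82, ALAS1 0.73, DNAJB1 0.61, BAG3 0.57 and SLC39A14 0.52 for the others. In 12 of these genes TK6's own change was not called: NR4A2, DNAJB1, BNIP3L, KDM3A, MSMO1, SC5D, H1-5, CCL4, CCL20, MT1G, YPEL5 and SPIB. Most were picked for their size or significance in the same TK6 arrays, and the genes of the closing observations after their values were seen, so the values describe them and the direction is fixed by the choice. DLEU2 rests on 2 of 7 probe sets. For genes near background in the other lines, the difference may only restate the TK6 change.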

How the results depend on the processing

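The count of 257 (104 higher and 153 lower) was 116 (52 and 64) with the mean of all probe sets, 29 (9 and 20) with the 6 arrays alone and 159 (66 and 93) without the variance trend. Without a replicate number of every group it ran from 0 to 723 (higher 0 to 295, lower 0 to 428), and without a single array from 51 to 385 (higher 20 to 177, lower 29 to 224). With the replicate block it was 995 (456 and 539). Same-numbered arrays at 3 h and 0 h correlated at 0.39, 0.15 and 0.06 in their deviations, and not every array correlated best with its own number, so the main fit held no block. These correlations were all positive, and every 3 h array correlated best with the 6 h array of its own number. An effect shared by same-numbered arrays therefore cannot be set aside. The count between 6 h and 3 h, 6, was 12 after quantile normalisation, 363 with the block, 1 to 321 without a replicate number and 2 to 119 without an array. The difference from the other lines, 211 genes, was 366 after quantile normalisation, 636 with the block, 5 to 787 without a replicate number and 74 to 287 without an array. The 10 hypoxia genes called lower were 5 with the 6 arrays alone, 16 with the block, 0 to 14 without a replicate number and 4 to 11 without an array, with a median change of −0.36 to −0.22 over all alternatives. The 5 immediate early genes were 10 after quantile normalisation, 1 with the 6 arrays alone, 3 without the trend, 16 with the block, 0 to 14 without a replicate number and 2 to 9 without an array, with a median of −0.53 to −0.30. Fewer arrays leave fewer degrees of freedom, and the cause of these shifts was not tested. Leaving out replicate 1, 2 or 3 of every group removes equally many arrays and gave 723, 0 and 1 called genes for 3 h against 0 h. DLEU2 was the named gene that turned direction, at −0.23 with the mean of its probe sets. Of 73 named called genes, 25 kept their call in all 6 fits without a single array, 36 with the mean of probe sets and 73 after quantile normalisation. The counts for 6 h against 3 h and for the other lines without single arrays, those against U2OS and BJ and those per list were chosen after seeing the data. Genes near the level limit, such as FOSB, FOS, APELA and TNIP3, read close to background at the lower group, so their fold changes depend on the background.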

Other observations

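The genes here were picked after their values were seen, from called genes outside the lists only, with no test of any group they belong to. SCD, the stearoyl-CoA desaturase, had 10.31, 10.54 and 10.55 at 3 h, against 10.95, 11.12 and 11.21 at 0 h (change −0.63, adjusted p = 0.0057), its 4 probe sets shared the direction, and it was called in each of the 6 fits that left out an array. The fatty acid synthase gene FASN (change −0.48), the acetyl-CoA carboxylase gene ACACA (−0.47) and the phosphatidate phosphatase gene LPIN1 (−0.88) also fell, and lost their calls in 4, 5 and 4 of those 6 fits. SAP30 (−0.57), ZNF395 (−0.71) and WSB1 (−0.45) fell and lost their calls in 4 of 6 fits each. The repressor genes ETV3 (−0.69) and MNT (−1.10), CSRNP1 (−1.05), a nuclear protein induced by growth signals, and MCL1 (−0.40), a short-lived survival factor, fell as well. ETV3 kept its call in all 6 fits, and the other 3 genes lost theirs in 3 to 4.

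The chemokine gene CCL2 had 11.65, 11.49 and 11.40 at 3 h, against 11.35, 10.55 and 10.67 at 0 h (change 0.66, adjusted p = 0.0326). The costimulatory receptor gene TNFRSF9 (0.51) and the adhesion gene VCAM1 (0.88) rose too. CCL2, TNFRSF9 and VCAM1 lost their calls in 5, 4 and 5 of the 6 fits without an array. ALAS1, the enzyme that starts haem synthesis, had 8.74, 8.67 and 8.72 at 3 h, against 8.35, 7.84 and 7.86 at 0 h (change 0.69, adjusted p = 0.00614). The zinc importer gene SLC39A14 rose (0.53), opposite in direction to the exporter gene SLC30A1 (−1.39), and MYB, a transcription factor of dividing blood cells, rose (0.55). ALAS1, SLC39A14 and MYB lost their calls in 1, 4 and 3 of the 6 fits.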
